A study of Mus musculus with 10 samples.

Results

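The effect of adding an Npm1c allele to Flt3-ITD was examined in mouse bone marrow by setting 2 double mutant libraries against 2 Flt3-ITD libraries of hematopoietic stem and progenitor cells (HSPC). The double mutant mice were Npm1flox-cA/+;Flt3ITD/+;Mx1-Cre+ and the Flt3-ITD mice Flt3ITD/+, so every library of the comparison carried 1 Flt3-ITD allele. WT mice and Npm1c mice (Npm1flox-cA/+;Mx1-Cre+), also with 2 libraries each, gave the matching step without Flt3-ITD, and 2 libraries of WT neutrophils were not part of the tests. All mice were C57BL/6, age and sex were not labelled, and the cells were lineage-negative cells left after red cell lysis and magnetic depletion of lineage-positive cells from femurs and tibias. Of 16771 genes listed, 9428 (56.2%) reached 1 RPKM (reads scaled for gene length and library total) in at least 2 of the 4 libraries, and every test was run on these. Of them, 740 reached that minimum in double mutant libraries alone and 444 in Flt3-ITD libraries alone. Such genes had to differ, so the counts below include a part that the minimum itself chose.

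NPM1 is an abundant nucleolar phosphoprotein that shuttles between nucleus and cytoplasm and helps in ribosome assembly. The leukemic mutation named Npm1c adds a nuclear export signal at its C terminus, which moves the protein to the cytoplasm, and acute leukemias that carry it typically express HOXA genes. FLT3 is a receptor tyrosine kinase of multipotent, lymphoid-primed and dendritic progenitors, and the internal tandem duplication (ITD) makes it signal without its ligand. The 2 mutations often occur together in acute myeloid leukemia. Mx1-Cre is a Cre recombinase under an interferon-inducible promoter that is used to recombine floxed alleles in hematopoietic cells. Because the Flt3-ITD genotype names no Cre, the Npm1c allele and the Cre transgene cannot be told apart in this comparison, nor can mutant and normal transcripts of Npm1 or Flt3 in values that are summed per gene.

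Promoters of 3 gene lists are shown first. MHC class II genes had the highest median log2 change of the lists and genes of mast cells, basophils and eosinophils the lowest, and the interferon response genes are shown for a core motif that many of their promoters hold. Each sequence covers the 140 bases just before the start of transcription (RefSeq, GRCm38.p6, coding strand, 5′ to 3′). Capitals mark matches to 1 motif per set, searched on both strands over windows of 250 bases before to 50 after the start. In the class II promoters the capitals mark CCAAT or its reverse complement ATTGG, the letters of the Y box that NF-Y binds:
H2-Aa (chr17:34287824-34287963, minus strand): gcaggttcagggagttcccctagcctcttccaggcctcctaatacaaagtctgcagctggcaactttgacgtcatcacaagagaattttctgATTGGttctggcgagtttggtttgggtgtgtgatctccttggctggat
H2-Eb1 (chr17:34305727-34305866, plus strand): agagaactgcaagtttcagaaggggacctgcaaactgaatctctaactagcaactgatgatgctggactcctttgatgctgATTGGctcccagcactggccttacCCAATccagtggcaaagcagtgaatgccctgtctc
H2-DMb1 (chr17:34153051-34153190, plus strand): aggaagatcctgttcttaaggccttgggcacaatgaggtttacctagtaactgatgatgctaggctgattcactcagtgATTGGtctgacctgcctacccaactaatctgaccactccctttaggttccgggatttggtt
H2-Oa (chr17:34092239-34092378, plus strand): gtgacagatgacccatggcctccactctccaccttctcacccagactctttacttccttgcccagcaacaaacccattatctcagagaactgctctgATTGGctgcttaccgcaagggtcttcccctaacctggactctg
H2-Ob (chr17:34238765-34238904, plus strand): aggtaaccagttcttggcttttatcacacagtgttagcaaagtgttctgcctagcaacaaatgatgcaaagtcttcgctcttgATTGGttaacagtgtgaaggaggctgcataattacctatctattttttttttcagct

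The CCAAT box was present in 88.9% of 9 class II promoters (8 of the 11 genes were matched), in 37.9% of 9042 promoters of tested genes and in 37.4% of all 32851 promoters of the same length. It was also found in 61.0% of promoters of DNA replication genes, 50% of the mast cell list and 41.2% of immediate early genes. The share was 29.4% for type 1 dendritic cell genes and 29.0% for the interferon list. In 2 interferon response genes the capitals mark the core GAAANNGAA on either strand, with overlapping matches run together:
Ifit3 (chr19:34583389-34583528, plus strand): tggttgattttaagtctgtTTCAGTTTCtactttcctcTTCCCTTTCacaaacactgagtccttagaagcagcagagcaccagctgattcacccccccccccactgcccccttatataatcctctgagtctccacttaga
Bst2 (chr8:71537473-71537612, minus strand): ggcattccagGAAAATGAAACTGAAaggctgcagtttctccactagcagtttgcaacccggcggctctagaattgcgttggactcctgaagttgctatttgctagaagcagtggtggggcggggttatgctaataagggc

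That core was found in 58.1% of 31 promoters of the interferon list (26 of 35 tested genes matched), against 7.58% of the promoters of tested genes. It was also found in 18.8% of the mast cell list and 17.6% each of the type 1 dendritic cell and immediate early lists. The share was 4.88% for DNA replication genes and 0% for the class II promoters. In the mast cell and basophil genes the capitals mark AGATAA or TTATCT, the letters of the GATA motif:
Prss34 (chr17:25298254-25298393, plus strand): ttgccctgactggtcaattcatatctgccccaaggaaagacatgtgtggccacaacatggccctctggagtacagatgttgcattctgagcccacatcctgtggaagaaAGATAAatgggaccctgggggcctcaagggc
Cpa3 (chr3:20242182-20242321, minus strand): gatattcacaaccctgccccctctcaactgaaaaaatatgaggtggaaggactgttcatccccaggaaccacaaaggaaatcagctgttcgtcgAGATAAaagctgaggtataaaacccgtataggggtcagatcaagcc
Ms4a2 (chr19:11623720-11623859, minus strand): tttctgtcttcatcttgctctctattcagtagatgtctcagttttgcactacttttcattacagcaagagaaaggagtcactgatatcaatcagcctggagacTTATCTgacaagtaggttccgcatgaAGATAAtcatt
Fcer1a (chr1:173227230-173227369, minus strand): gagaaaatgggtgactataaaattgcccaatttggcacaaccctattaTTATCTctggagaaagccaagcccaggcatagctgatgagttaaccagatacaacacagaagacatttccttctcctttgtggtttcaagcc

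The GATA motif was present in 37.5% of 16 promoters of that list (15 of 16 tested genes matched) and in 6.46% of the promoters of tested genes. It was also found in 33.3% of the 9 class II promoters, 17.6% of those of type 1 dendritic cell genes and 16.1% of the interferon list. Other motifs were searched in every set, and only the motifs marked above are reported. These matches describe letters in a window and do not show that a factor bound there. The levels, differences and tests of these genes follow.

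Recovered library totals ran from 44450779 to 57824373 reads in the 8 HSPC libraries, and 60.9% to 74.5% of them fell on listed genes. All levels below are RPKM scaled between the 8 libraries by the median of ratios. The double mutant libraries were very alike: over 9336 genes the median chi-square between them was 0.563, where counting error alone gives 0.455. The Flt3-ITD libraries differed far more, with a median of 6.02 over 9158 genes, and 1 of them, replicate 1, also held Y-linked transcripts (a sum of 12.5 scaled RPKM) that were near 0 in replicate 2 and in the double mutant. Of the Npm1c libraries replicate 2 alone held them. The submitters call the replicates biological, but no label says that the WT or the double mutant pair came from separate animals, and the p-values measure only the spread between these libraries. With the double mutant libraries averaged and counted as 1 sample, a setting chosen after seeing the data, 3285 genes were higher and 3268 lower.

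The labelled cell type was checked against marker genes. Of 6 HSPC markers, Flt3 and Ly6a rose in the double mutant while 4 fell, among them Kit, Cd34 and Gata2. Their summed level was 47.1 and 36.2 in Flt3-ITD and 69.0 and 69.2 in the double mutant, where Flt3 alone gave 48.8 and 48.9. All 5 conventional dendritic cell markers (Xcr1, Clec9a, Itgax, Zbtb46 and Cd209a) rose, from a sum of 6.43 and 7.59 to 299 and 293.5. The WT sums were 6.62 and 6.65, and the Npm1c sums 5.72 and 5.72. All 5 markers of basophils, mast cells and eosinophils fell, from 298 and 127 to 7.04 and 9.39. Megakaryocyte markers summed to 57.6 and 60.0 against 34.4 and 34.2, and 2 of 4 tested fell. Neutrophil markers summed to 264 and 254 against 107 and 91.7, and 3 of 7 tested fell. The neutrophil sums were 59.2 and 45.3 in WT and 90.6 and 407 in Npm1c, so the double mutant lay above WT. Erythroid markers summed to 299.99 and 389 against 535 and 519.5, with 3 of 5 rising and 2 falling. Most of that double mutant sum was the globin Hba-a1, and the other erythroid markers together summed lower in the double mutant. B cell, T and NK cell and stromal sums were at most 8.35 in the 4 Flt3-ITD and double mutant libraries. No defining marker of any of these cell types was at 0 in both libraries of a group. In bulk RNA, fewer cells of a type and less RNA of a gene per cell cannot be told apart, and the part of cell composition in the gene results below was not tested.

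**Figure D1:**
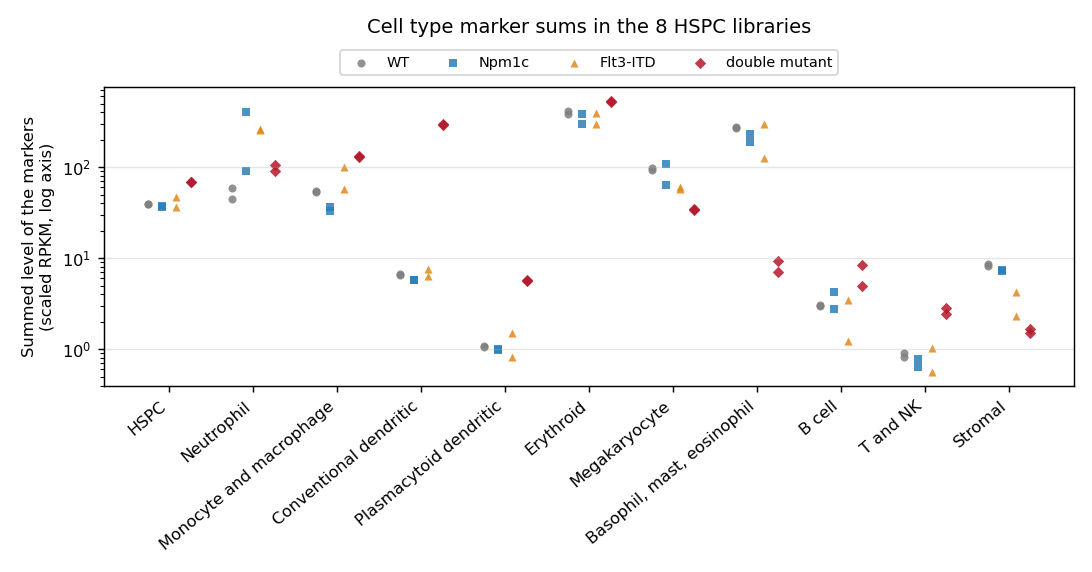
Summed level of the defining markers of 11 cell types in each of the 8 HSPC libraries (scaled RPKM, log axis); each point is 1 library, coloured by genotype. The conventional dendritic sums of the double mutant (299 and 293.5) stand apart from the other 6 libraries, and its basophil, mast cell and eosinophil sums (7.04 and 9.39) lie lowest.

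Adding Npm1c to Flt3-ITD went with a change in most expressed genes. Counts of list members below are to be read beside the shares of all tested genes given here. Of the 9428 genes, 3660 (38.8%) were higher and 3788 (40.2%) lower in the double mutant at an adjusted p under 0.05 (limma, Benjamini-Hochberg over all 9428). The large changes were mostly upward: 1398 genes (14.8%) were higher by at least 2-fold and 352 (3.73%) lower by at least 2-fold. Of the former, 588 had met the expression minimum in the double mutant alone, and of the latter 116 in Flt3-ITD alone. A log2 rise of at least 4 was seen for 103 genes and a fall of that size for 3. In 90.4% of the 9428 genes the 2 double mutant values lay both above or both below the 2 Flt3-ITD values. The near-even split depended on the scaling: on the scale as deposited, where the median gene shifted by -0.17, 2779 genes were higher and 4577 lower, and with quantile normalization, where it shifted by -0.19, 2880 were higher and 4877 lower. No gene called with a 2-fold change was called in the opposite direction under any alternative that was run. Without a fold minimum, 4 genes were called in the opposite direction with quantile normalization, and none under the other alternatives.

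The mutated genes themselves moved in opposite directions. Npm1 (chr11:33152287-33163206, minus strand, GRCm38) was at 267 and 291 in Flt3-ITD and at 161 and 157 in the double mutant, with 250.1 and 247 in WT, and 286 and 309.8 in the Npm1c libraries. Both double mutant libraries were thus the lowest of the 8, and Npm1 fell by 0.81 on the log2 scale (SE 0.06, adjusted p = 1.57e-05). Flt3 (chr5:147330741-147400489, minus strand) was at 4.77 and 3.83 in Flt3-ITD, at 4.63 and 4.54 in WT and at 3.71 and 3.52 in Npm1c, and at 48.8 and 48.9 in the double mutant. Its log2 rise was 3.37 (SE 0.09, adjusted p = 7.51e-08). The conventional dendritic cell markers rose too, and Flt3 is itself on the list of type 1 dendritic cell genes. The part of dendritic cells in the rise of Flt3 was not tested.

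HoxA genes, homeobox transcription factors of early progenitors, lie in a cluster on chromosome 6. Of 10 listed members 5 were tested, of which 4 met the minimum through the double mutant alone, and all 5 rose, with a median log2 change of 1.88 against -0.02 over all genes tested. Hoxa10 (chr6:52231197-52240854) was at 0.0881 and 0.113 in Flt3-ITD and at 3.49 and 3.44 in the double mutant, a log2 rise of 2.73 (SE 0.09, adjusted p = 2.48e-07). Its levels in Npm1c, 5.29 and 4.25, were above those of the double mutant, and those in WT were 0.111 and 0.109. Hoxa9 followed the same order, with 1.2 and 0.901 in Flt3-ITD, 3.71 and 3.56 in the double mutant and 4.62 and 4.39 in Npm1c.

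Hoxa5, Hoxa6 and Hoxa7 had their highest levels in the double mutant. Hoxa5 was at 0.371 and 0.153 in Flt3-ITD, at 1.47 and 0.969 in Npm1c and at 2.42 and 2.35 in the double mutant. Hoxa7 was at 0.817 and 0.530, at 1.44 and 1.42, and at 2.91 and 3.19 in the same groups. With no expression minimum all 10 listed HoxA genes rose, as did 5466 of all 16771 genes. The 5 members added there had not reached the minimum, so their calls concern low levels. None of the 8 listed HoxB genes, nor Meis1, the usual partner of HOXA9, reached the minimum.

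The largest rises were those of antigen presentation. MHC class II molecules display peptides from engulfed proteins to CD4+ T cells and are made by dendritic cells, B cells and macrophages. All 11 class II genes rose, with a median log2 change of 4.93, and 4 of them met the minimum through the double mutant alone. H2-Eb1 (chr17:34305867-34316674), a class II beta chain whose promoter is printed above, went from 5.36 and 3.43 to 2406 and 2420.3, a ratio of means of 549 and a log2 change of 8.97 (SE 0.19, adjusted p = 3.37e-08). The alpha chain H2-Aa went from 3.60 and 2.93 to 1433 and 1416, and its partner H2-Ab1 from 6.73 and 5.54 to 1855 and 1825. In every library without both mutations these 3 genes stayed below 7 RPKM.

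Cd74, the invariant chain that guards the class II groove, was at 6.75 and 5.88 in Flt3-ITD and at 1819 and 1819 in the double mutant. Ciita, the coactivator that class II promoters depend on, was at 0.247 and 0.192 against 83.6 and 83.4 (log2 6.87, SE 0.06, adjusted p = 1.59e-09). The peptide-loading chains rose by less: H2-DMa was at 20.6 and 17.9 against 179 and 175, and H2-DMb1 at 6.70 and 5.13 against 168 and 168. H2-Oa and H2-Ob, which restrain loading, showed log2 rises of 3.90 and 4.45. On the Npm1c step without Flt3-ITD, where 18.6% of all tested genes rose and 20.3% fell, none of the 11 rose and 4 fell.

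**Figure D2:**
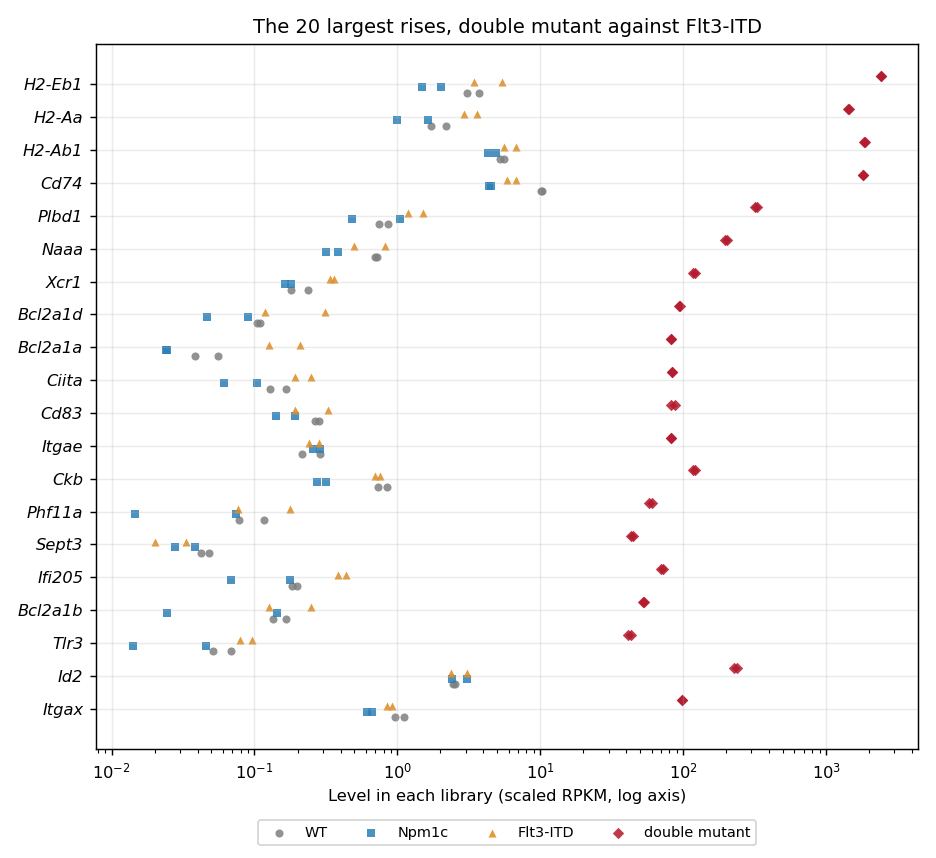
Levels of the 20 genes with the largest rises in each of the 8 HSPC libraries (scaled RPKM, log axis), ordered by log2 change; each point is 1 library. The double mutant libraries lie far to the right and nearly on one another, and the other 6 libraries lie together at low levels.

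Genes of conventional type 1 dendritic cells, which take up dead cells and cross-present their antigens, rose almost as a group. Of 19 tested, 18 rose, each by at least 2-fold, and none fell, with a median log2 change of 4.89, and 9 met the minimum through the double mutant alone. Xcr1, a chemokine receptor that marks these cells (chr9:123852315-123862029), was at 0.359 and 0.337 in Flt3-ITD and at 121 and 117 in the double mutant (log2 7.14, SE 0.06, adjusted p = 1.34e-09). Clec9a, their receptor for dead cells, was at 0.966 and 1.39 against 56.6 and 55.5. Tlr3, an endosomal sensor of double-stranded RNA, was at 0.0966 and 0.0794 against 43.4 and 41.1. Itgae, the integrin chain CD103, was at 0.283 and 0.243 against 82.1 and 82.0. Their levels in WT and Npm1c resembled those in Flt3-ITD, so that for these genes the double mutant stood alone.

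The transcription factors of that lineage rose too. Irf8 went from 17.1 and 13.9 to 98.3 and 98.5, Id2 from 3.08 and 2.36 to 236 and 227, and Zbtb46 from 2.49 and 3.31 to 11.3 and 10.9. Naaa and Plbd1, lysosomal hydrolases, showed log2 rises of 7.45 (SE 0.12) and 7.45 (SE 0.20). Of 15 tested genes of type 2 and plasmacytoid dendritic cells 14 rose and none fell (median log2 change 1.62), and 5 met the minimum through the double mutant alone. Among them Itgax, the integrin chain CD11c shared by dendritic cells, was at 0.846 and 0.915 against 98.6 and 97.6. Siglech, Ccr9 and Tcf4, which belong to plasmacytoid cells, did not reach the minimum. Of 4 plasmacytoid markers the 1 tested rose. The 4 summed to 0.831 and 1.53 in Flt3-ITD and to 5.57 and 5.72 in the double mutant.

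All 20 tested genes of dendritic cell activation rose (median log2 change 3.20), although 14 of them met the minimum through the double mutant alone. Cd83 was at 0.326 and 0.192 in Flt3-ITD and at 87.8 and 82.6 in the double mutant, a log2 rise of 6.82 (SE 0.09). Cd86, a costimulator of T cells, was at 0.137 and 0.0960 against 34.3 and 33.5. Ccr7, the receptor that guides dendritic cells to lymph nodes, was at 0.705 and 0.571 against 76.7 and 75.1. The chemokine Ccl22 and the actin bundler Fscn1 showed log2 rises of 5.30 and 4.92. The conventional dendritic marker sums given above moved with all of these lists, but they are not independent of them. Xcr1, Clec9a and Zbtb46 are on the type 1 list, and Itgax and Cd209a on the type 2 and plasmacytoid list.

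MHC class I, the display of peptides made inside the cell, rose by smaller factors from a higher base. Of 20 class I and immunoproteasome genes 19 rose and none fell, with a median log2 change of 1.49, and none met the minimum through 1 group alone. B2m, the light chain common to class I, was at 1113 and 997 in Flt3-ITD and at 1746 and 1759 in the double mutant (log2 0.73, SE 0.07, adjusted p = 4.96e-05). The heavy chain H2-D1 was at 83.1 and 70.9 against 275 and 275. The peptide transporter Tap1 was at 6.55 and 6.52 against 22.5 and 22.1, and the immunoproteasome subunit Psmb8 at 27.2 and 23.9 against 84.8 and 82.6.

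Lysosomal and phagocyte genes showed a mixed picture. Of 20 cathepsins and related genes 14 rose and 5 fell. Cst3, a secreted cathepsin inhibitor abundant in dendritic cells, was at 57.7 and 42.6 in Flt3-ITD and at 1424 and 1428 in the double mutant (log2 4.83, SE 0.12, adjusted p = 6.98e-08). Ctss, which trims the invariant chain, was at 13.8 and 10.6 against 159.6 and 158, and Psap, the precursor of sphingolipid activators, at 30.2 and 28.5 against 432 and 432. Ctsg, a protease of primary granules, fell, from 387 and 193 to 39.3 and 38.2. Of 10 subunits and partners of the phagocyte NADPH oxidase 9 rose and none fell. Cyba, the smaller membrane subunit, was at 43.3 and 35.4 against 179 and 175, and Cybb, the larger, at 4.74 and 3.53 against 15.2 and 15.3.

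**Figure D3:**
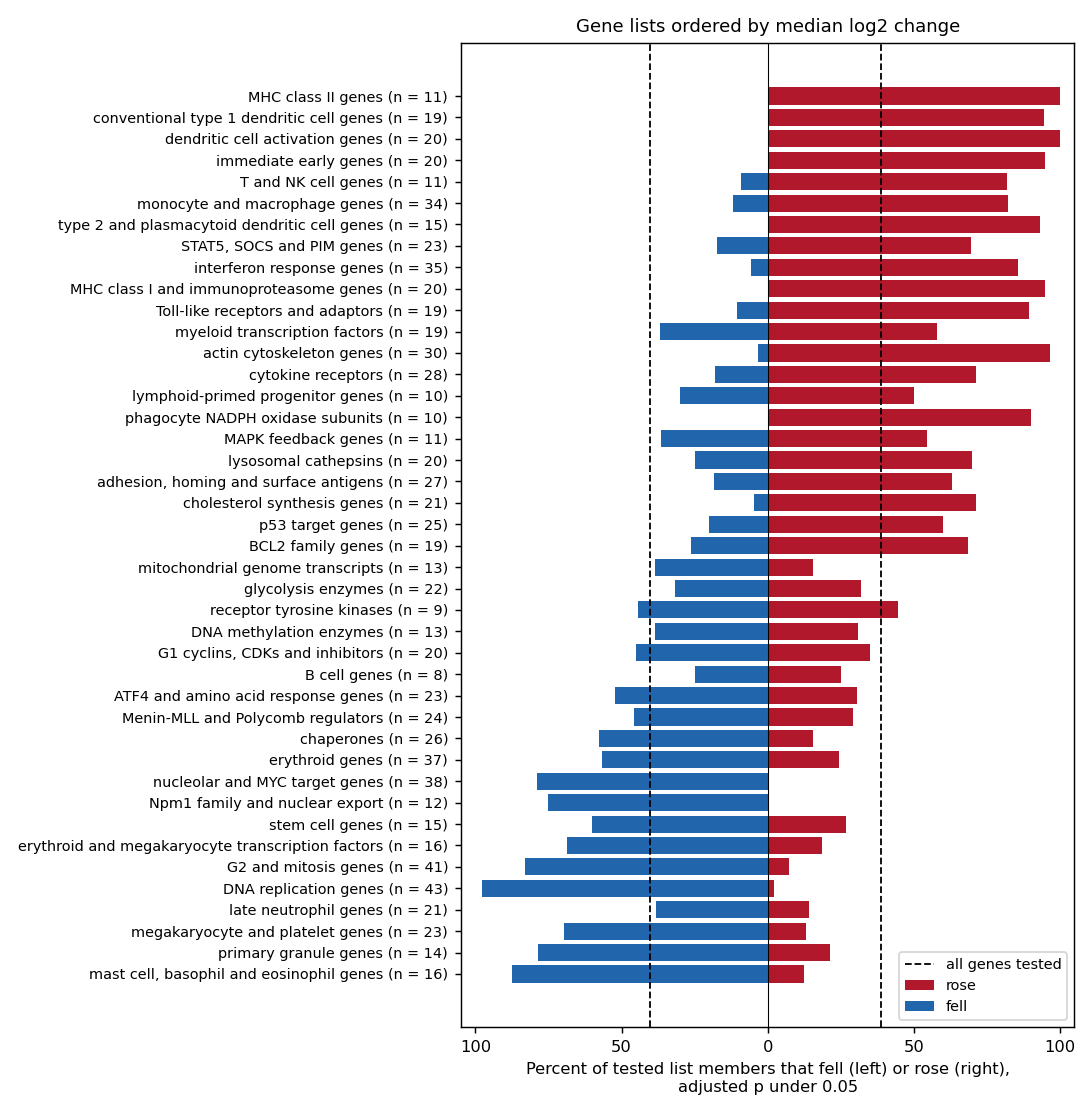
Percent of the tested members of each gene list that fell (bars to the left) or rose (bars to the right) in the double mutant against Flt3-ITD, with lists of at least 8 tested members ordered by median log2 change and the share of all 9428 tested genes (40.2% lower, 38.8% higher) as dashed lines. MHC class II, dendritic, immediate early and actin genes lie far beyond the right line, and DNA replication, mitosis, nucleolar and mast cell genes beyond the left one.

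Monocyte and macrophage genes rose more often than not. Of 34 tested, 28 rose and 4 fell (median log2 change 2.07), and 16 met the minimum through the double mutant alone. Mpeg1, a pore-forming protein of macrophages and dendritic cells, was at 27.0 and 24.7 in Flt3-ITD and at 641 and 639 in the double mutant (log2 4.61, SE 0.10). Ccr2, the receptor that brings monocytes out of marrow, was at 7.84 and 7.42 against 36.9 and 35.8. C1qa and C1qb, complement chains made by macrophages, showed log2 rises of 4.43 and 4.19. Csf1r, the receptor for macrophage colony-stimulating factor, was at 11 and 7.84 against 8.83 and 8.93, and the groups overlapped. Without Flt3-ITD replicate 1 its log2 change was 0.17 (adjusted p = 0.00813) and without replicate 2 -0.29 (adjusted p = 0.000635), so 1 library decided its direction. Ly6c2, an antigen of classical monocytes, fell from 73.9 and 34.6 to 25.8 and 25.6 (log2 -0.96, SE 0.29, adjusted p = 0.0188), where Flt3-ITD replicate 1 stood high, and did not pass without double mutant replicate 1 (adjusted p = 0.0665) or replicate 2 (adjusted p = 0.0688).

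Pattern recognition and interferon genes rose together. Of 19 Toll-like receptors and adaptors 17 rose and 2 fell, with 8 meeting the minimum through the double mutant alone. Tlr11, a receptor for microbial profilin, was at 0.0768 and 0.0464 against 39.7 and 39.2, and Tlr9, a sensor of unmethylated DNA, at 0.733 and 0.726 against 15.8 and 15.3. Unc93b1, the chaperone that carries such receptors to endosomes, was at 12.4 and 8.87 against 60.4 and 59.1. The adaptor Myd88 was at 5.10 and 5.34 against 18.4 and 17.6 (log2 1.69, SE 0.05, adjusted p = 1.21e-07).

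Of 35 interferon response genes 30 rose and 2 fell (median log2 change 1.49), and 3 met the minimum through the double mutant alone. Irf7, the factor that amplifies the response, was at 1.65 and 1.78 against 15.0 and 14.8. Stat2, a subunit of the factor that type I interferon activates, was at 1.86 and 1.97 against 11.2 and 11.6. Ifit3, whose promoter is printed above, was at 0.419 and 0.341 against 3.86 and 3.63 (log2 2.27, SE 0.07), and Bst2, also printed, at 28.9 and 24.1 against 74.9 and 75.1 (log2 1.49, SE 0.11). Ifi27l2a went from 20.9 and 13.1 to 204 and 210.1. Mx1, whose promoter drives the Cre transgene, was at 0.175 and 0.177 in Flt3-ITD and at 4.02 and 3.84 in the double mutant. In Npm1c, also with the transgene, it was at 0.0489 and 0.0335. The part of the transgene or its induction in the interferon genes was not tested. On the Npm1c step without Flt3-ITD 3 of the 35 rose and 15 fell, against 18.6% and 20.3% of all tested genes.

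Immediate early genes, which cells switch on soon after a stimulus without new protein synthesis, were higher nearly throughout. Of 20 tested, 19 rose and none fell, 18 by at least 2-fold, with a median log2 change of 3.18, and 4 met the minimum through the double mutant alone. Egr1 was at 0.635 and 0.434 in Flt3-ITD and at 8.54 and 8.70 in the double mutant (log2 3.15, SE 0.09, adjusted p = 1.55e-07). Dusp1, a phosphatase that ends MAP kinase signals, was at 4.15 and 2.87 against 40.7 and 40. Nr4a1 was at 0.138 and 0.158 against 11.2 and 10.7, and Ier5 at 3.97 and 3.98 against 52.7 and 54.0. The stress-inducible heat shock genes Hspa1a and Hspa1b, near-identical copies between which reads cannot be assigned with certainty, were at 4.02 and 1.44 against 37.6 and 36.7 and at 4.95 and 2.34 against 31.1 and 30.6. Of 26 chaperones, these 2 included, 4 rose and 15 fell.

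Signalling genes rose in larger numbers than they fell, where 38.8% of all tested genes rose and 40.2% fell. Of 28 cytokine receptors 20 rose and 5 fell, and of 23 STAT5, SOCS and PIM genes 16 rose and 4 fell, with 2 falls remaining when double mutant replicate 1 was left out. Of these 23, 7 met the minimum through the double mutant alone. Pim1, a kinase induced by STAT5, was at 16.0 and 17.6 against 64.7 and 61.7, and Cish, a STAT5 target that dampens cytokine signals, at 0.212 and 0.204 against 1.78 and 1.69. Jak2 was at 11.1 and 10.7 against 34.3 and 33.4. Among the receptors Il10ra (log2 3.61), Il13ra1 (3.65) and Il7r (1.94) rose. Epor, the erythropoietin receptor, fell from 20.5 and 24.5 to 10.3 and 9.89. Igf1r, a growth factor receptor kinase, fell from 10.9 and 10.7 to 3.22 and 3.09 (log2 -1.63, SE 0.06).

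Myeloid transcription factors split. Of 19 tested 11 rose and 7 fell, where 38.8% of all tested genes rose and 40.2% fell. Irf5, which drives inflammatory cytokines, was at 1.84 and 1.52 against 48.5 and 46.6, Klf2 at 1.83 and 1.60 against 39.6 and 39.3, and Klf6 at 8.6 and 8.34 against 92.2 and 88.7. Spi1 (PU.1), named here after its values were seen, was at 11.2 and 7.14 against 33.5 and 33.1. Myb, a factor of proliferating progenitors likewise named after its values were seen, fell from 48.2 and 42.4 to 11.5 and 11.6 (log2 -1.93, SE 0.06). Myc fell from 7.41 and 6.96 to 4.32 and 4.31 (log2 -0.67, SE 0.06, adjusted p = 2.92e-05).

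Actin genes rose almost without exception, 29 of 30, with 1 fall, and none met the minimum through 1 group alone. Actb was at 492 and 462 in Flt3-ITD and at 1775 and 1774 in the double mutant (log2 1.89, SE 0.05, adjusted p = 6.97e-08). Gsn, which severs actin filaments, was at 1.78 and 1.62 against 23.5 and 22.6. Cfl1, another severing protein, showed a log2 rise of 0.32, which did not pass on the deposited scale (0.15, adjusted p = 0.228). Of 27 adhesion, homing and surface antigens 17 rose and 5 fell, or 8 fell without Flt3-ITD replicate 2. Itgb2, the common chain of leukocyte integrins, was at 3.31 and 2.81 against 22.4 and 22.7, and Havcr2 (TIM-3) at 0.204 and 0.133 against 42.4 and 41.3.

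Stem cell genes fell more often than they rose, 9 against 4 of 15 tested, where 40.2% of all tested genes fell and 38.8% rose. A further 13 stem cell genes, among them Procr, Mecom, Hlf and Fgd5, stayed below the minimum. Cd34, the sialomucin of early progenitors, fell from 24.1 and 15.7 to 3.60 and 3.73 (log2 -2.26, SE 0.17, adjusted p = 1.60e-05). Gata2 fell from 4.18 and 3.22 to 1.05 and 1.13, and Angpt1 from 11.2 and 8.4 to 2.26 and 2.20. Kit, the stem cell factor receptor, fell from 12.0 and 11.3 to 9.61 and 9.57 (log2 -0.26, SE 0.05, adjusted p = 0.00148). Ly6a (Sca-1), an antigen of mouse stem cells that interferon also induces, rose from 0.965 and 0.920 to 5.69 and 5.63.

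Genes of basophils, mast cells and eosinophils gave the largest falls. Of 16 tested 14 fell and 2 rose (median log2 change -2.69), and 8 met the minimum through Flt3-ITD alone. Prss34 (chr17:25298394-25300165), a basophil protease whose promoter is printed above, fell from 212 and 116 to 2.75 and 4.58, a ratio of means of 44.8 and a log2 change of -5.28 (SE 0.31, adjusted p = 4.54e-06). Mcpt8, another basophil protease, fell from 129 and 61.0 to 1.84 and 2.87. Cpa3, the mast cell carboxypeptidase, fell from 37.3 and 19.2 to 1.91 and 2.23. The IgE receptor chains Fcer1a and Ms4a2 fell from 4.4 and 3.25 to 0.0411 and 0.201, and from 5.89 and 3.60 to 0.115 and 0.158. The eosinophil granule proteins Prg2 and Epx fell from 116 and 39.0 to 3.02 and 3.87, and from 9.68 and 3.75 to 0.157 and 0.254.

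These genes were high in all libraries other than the double mutant. Prss34 was at 226 and 237 in WT and at 176 and 224 in Npm1c. Flt3-ITD replicate 1 stood above replicate 2 for each of those 7 genes. The groups did not overlap, as was so for 90.4% of all tested genes. Ccr3, an eosinophil chemokine receptor on the same list, was 1 of the 2 that rose, from 0.223 and 0.251 to 2.19 and 2.25.

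**Figure D4:**
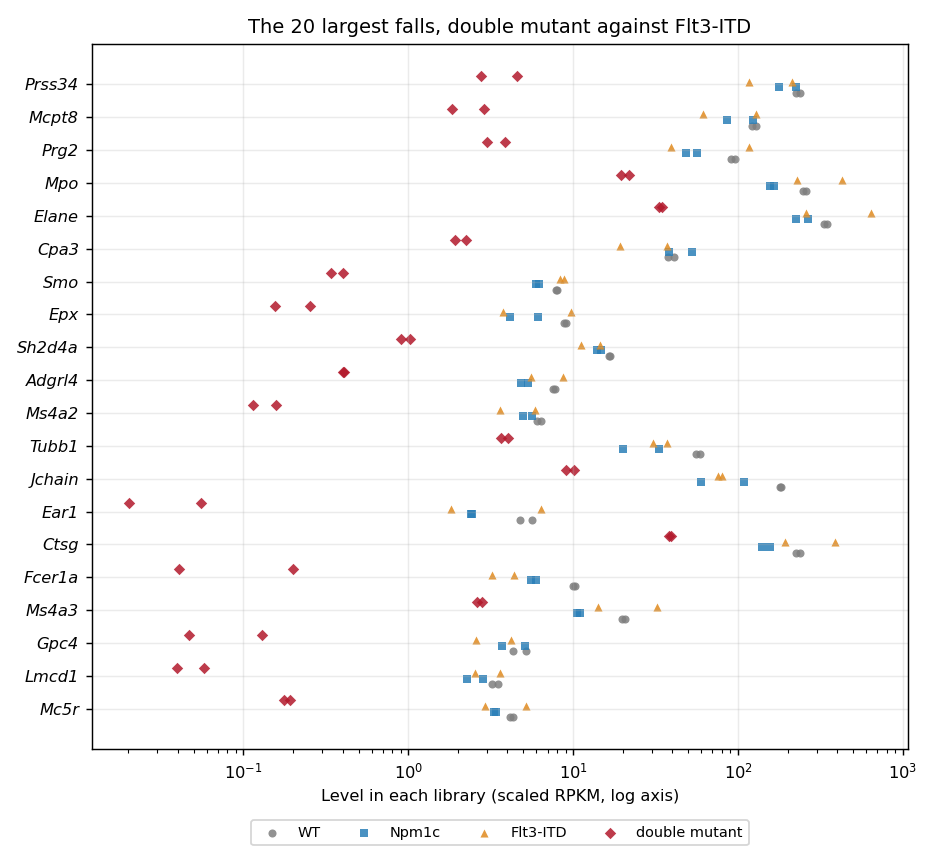
Levels of the 20 genes with the largest falls in each of the 8 HSPC libraries (scaled RPKM, log axis), ordered by the size of the log2 change; each point is 1 library. The double mutant libraries lie to the left of the other 6 for each gene. The 2 Flt3-ITD libraries lie apart for some genes, such as Prss34 and Mpo, and close together for others, such as Smo.

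Primary granule genes, which promyelocytes express, fell too. Of 14 tested 11 fell and 3 rose (median log2 change -1.25). Mpo, the myeloperoxidase gene (chr11:87793581-87804413), fell from 426 and 227 to 19.4 and 21.8 (log2 -3.88, SE 0.25, adjusted p = 7.88e-06). Elane, neutrophil elastase, fell from 642 and 259 to 34.6 and 33.3, and Ms4a3, a marker of granulocyte and monocyte progenitors, from 32.4 and 14.2 to 2.60 and 2.78. The 3 that rose included Rnase6 (from 7.57 and 6.75 to 150.4 and 143) and Ctsz (from 62.8 and 48.2 to 165 and 168), which monocytes and dendritic cells also express.

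Late neutrophil genes gave no stable count, and their share of falls, 38.1%, was near the 40.2% of all tested genes. Of 21 tested 8 fell, 3 rose and 10 did not pass, and the number of falls ran from 4 without double mutant replicate 2 to 16 without either Npm1c replicate or in a fit of the 4 libraries alone. S100a8 was at 65.3 and 62.5 in Flt3-ITD and at 25.4 and 21.6 in the double mutant (log2 -1.43, SE 0.56, adjusted p = 0.0483). The 2 groups did not overlap, as was so for 90.4% of all tested genes. Npm1c replicate 2, at 102 against 24.3 in replicate 1, widened the spread that all 4 groups share. Ngp showed the same pattern, with 70.0 and 72.1 against 26.5 and 24.6, and 25.7 and 112 in Npm1c. Without Npm1c replicate 1 or replicate 2 both genes still passed, but leaving out any other library ended the call of each, with adjusted p from 0.0766 to 0.157 for S100a8 and from 0.0767 to 0.139 for Ngp. Il1b, a cytokine of activated myeloid cells, was 1 of the 3 that rose, from 0.359 and 0.434 to 3.96 and 3.81.

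Megakaryocyte and platelet genes fell, 16 of 23 tested, while 3 rose, and 5 met the minimum through Flt3-ITD alone. Tubb1, the tubulin of platelet rims, fell from 30.5 and 37.1 to 3.67 and 4.02 (log2 -2.97, SE 0.21, adjusted p = 1.35e-05). Itga2b, the integrin chain CD41, fell from 9.53 and 9.27 to 2.31 and 2.43, and the chemokine Ppbp from 86.6 and 73.2 to 21.3 and 21.8. Pf4 was at 35.9 and 39.1 against 25.9 and 25.3 and did not pass the test (adjusted p = 0.0579), but passed without Npm1c replicate 1 (adjusted p = 0.000314) or replicate 2 (adjusted p = 0.000301). Plek, a substrate of protein kinase C in platelets and leukocytes, rose from 18.8 and 19.6 to 56.7 and 56.1.

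Erythroid genes split, with 21 of 37 falling and 9 rising, against 40.2% and 38.8% of all tested genes. Those that fell included the carbonic anhydrase Car2 (from 466 and 558 to 289 and 288). Those that rose included products of late erythroblasts. The globin Hba-a1, which has a near-identical copy, rose from 95 and 151 to 359.9 and 350.5. The anion exchanger Slc4a1 rose from 15.4 and 20.5 to 45.6 and 44.9, and Alas2, the first enzyme of erythroid heme synthesis, from 1.75 and 4.66 to 10 and 9.52 (adjusted p = 0.0183). Alas2 did not pass when Flt3-ITD replicate 1 was left out (adjusted p = 0.0813), nor when double mutant replicate 1 (adjusted p = 0.0680) or replicate 2 (adjusted p = 0.0596) was. Of 16 erythroid and megakaryocyte transcription factors 11 fell and 3 rose. Among them Klf1, the erythroid master factor, fell from 109.6 and 134 to 58.7 and 55.5, Gata1 from 38.0 and 44.6 to 23.6 and 23.3, and Gfi1b from 23.6 and 29.4 to 8.43 and 8.22.

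Several genes outside these lists were among the largest falls. Smo, the signal transducer of the Hedgehog pathway (chr6:29735503-29761365), fell from 8.34 and 8.77 to 0.341 and 0.404 (log2 -3.38, SE 0.06, adjusted p = 1.01e-08), with 7.86 and 8.0 in WT and 5.98 and 6.19 in Npm1c. Sh2d4a fell from 11.2 and 14.5 to 0.908 and 1.02, and the adhesion receptor Adgrl4 from 8.70 and 5.53 to 0.409 and 0.403. Among the largest rises outside the lists, Ckb, a creatine kinase, was at 0.751 and 0.698 against 122 and 117, and Sept3, a septin, at 0.0331 and 0.020 against 44.6 and 43.4.

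Proliferation genes fell by small but even steps. Of 43 DNA replication genes 42 fell and 1 rose, with a median log2 change of -0.60, and none met the minimum through 1 group alone. Mcm6, a subunit of the replicative helicase, fell from 76.7 and 76.9 to 44.5 and 44.6 (log2 -0.78, SE 0.04, adjusted p = 1.72e-06). Cdc6, which loads that helicase, fell from 12.2 and 13 to 6.11 and 5.90, and Rrm1, a subunit of ribonucleotide reductase, from 154 and 170.5 to 81.5 and 81.4. Of 41 genes of G2 and mitosis 34 fell and 3 rose. Top2a, the topoisomerase of dividing cells, fell from 78.1 and 78.2 to 41.4 and 41.9, and the kinesin Kif11 from 59.3 and 60.9 to 35.4 and 33.3.

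Regulators of the G1 phase moved both ways, 7 up and 9 down of 20, near the shares of all tested genes (38.8% and 40.2%). Cdk6 fell from 44.3 and 38.2 to 14.2 and 14.4 (log2 -1.49, SE 0.07), and Cdk4 from 29.0 and 28.2 to 16.0 and 16.2. The inhibitor Cdkn1b (p27) rose from 4.35 and 4.47 to 8.59 and 8.57, while the cyclin Ccnd1 rose from 1.42 and 1.26 to 27.9 and 27.6.

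Nucleolar and MYC target genes fell, 30 of 38, and none rose (median log2 change -0.38). Utp15, which acts in ribosomal RNA transcription and processing, fell from 19.1 and 21.5 to 11.6 and 12.0 (log2 -0.75, SE 0.06, adjusted p = 1.90e-05), and Wdr12, a ribosome assembly factor, from 4.69 and 5.02 to 2.38 and 2.54. Of 12 genes of the Npm1 family and nuclear export 9 fell and none rose. Xpo1, the exportin that carries the mutant NPM1 to the cytoplasm, fell from 18.2 and 20.7 to 13.5 and 13.2 (log2 -0.52, SE 0.07), and the GTPase Ran from 93.1 and 100.1 to 60.9 and 60.9. On the deposited scale the median gene itself shifted by -0.17 in the same direction as these falls.

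Of 24 Menin-MLL and Polycomb regulators 7 rose and 11 fell, against 38.8% and 40.2% of all tested genes. Dpy30, a core subunit of MLL complexes, fell from 32.8 and 34.7 to 19.4 and 18.7 (log2 -0.81, SE 0.05), and Wdr5, another core subunit, from 14.4 and 15.3 to 10.6 and 10.5. Kdm6b, a demethylase of histone H3 lysine 27, rose from 1.08 and 1.02 to 4.46 and 4.42, and Aff1, a subunit of the super elongation complex, from 3.74 and 3.21 to 7.97 and 7.87.

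Cell death genes mostly rose, where 38.8% of all tested genes rose and 40.2% fell. Of 19 BCL2 family genes 13 rose and 5 fell, with 7 meeting the minimum through the double mutant alone, and 3 falls remained without double mutant replicate 1 or without replicate 2. The antiapoptotic Mcl1 was at 38.7 and 39.2 against 117 and 115. Bcl2a1a, Bcl2a1b and Bcl2a1d, near-identical antiapoptotic copies that share reads, were at most 0.310 in Flt3-ITD and between 51.9 and 95.6 in the double mutant. The proapoptotic Pmaip1 (Noxa) was at 0.836 and 0.885 against 44.0 and 43.6 (log2 5.03, SE 0.12), Bbc3 (Puma) at 0.777 and 0.783 against 3.55 and 3.10, and Bmf at 0.120 and 0.123 against 3.06 and 2.82. Of 25 p53 targets 15 rose and 5 fell, or 2 fell without double mutant replicate 2, and 6 of the 25 had met the minimum in the double mutant only. Of 21 cholesterol synthesis genes 15 rose and 1 fell, with Hmgcs1, the synthase at the head of the pathway, at 8.39 and 7.42 against 20.9 and 21.4.

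T and NK cell genes rose in 9 of 11 tested, although 8 of the 11 met the minimum through the double mutant alone, and 20 more, among them Cd3d, Cd3e and Cd3g, stayed below the minimum. The 9 included Cd8a (0.0190 and 0.0332 against 2.76 and 2.67) and Ccl5 (0.697 and 0.584 against 30.2 and 29.6), which dendritic cells can also express. Of 27 B cell genes on the list 8 were tested, of which 2 rose and 2 fell, against 38.8% and 40.2% of all tested genes. Jchain, the joining chain of secreted antibodies that early lymphoid progenitors also express, fell from 79.5 and 75.8 to 9.04 and 10.2. Pax5 and Vpreb1 were below the minimum.

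The step from Flt3-ITD to the double mutant was then compared with the step from WT to Npm1c, which shares no library with it. Over the same 9428 genes 1758 (18.6%) were higher and 1918 (20.3%) lower in Npm1c at an adjusted p under 0.05 (limma). Large changes were few: 32 genes (0.339%) were at least 2-fold higher and 34 (0.361%) at least 2-fold lower. The interaction, the difference between the 2 steps, was positive for 3520 genes (37.3%) and negative for 3433 (36.4%) at an adjusted p under 0.05 (limma). Across genes, which are not independent replicates, the log2 changes of the 2 steps had a Pearson correlation of -0.17 and a Spearman correlation of -0.245.

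At 2-fold or more 10 genes were higher on both steps: Hoxa5, Hoxa6, Hoxa9, Hoxa10, Hopx, Fosb, Jun, Ccl4, Cpd and Podxl, listed here for their values. They were 0.715% of those of the double mutant step and 31.3% of those of the Npm1c step, where 14.8% of all tested genes were 2-fold higher on the double mutant step. For Hopx, a homeodomain protein without DNA binding, the interaction was 0.10 and did not pass the test: it was at 0.180 and 0.309 in Flt3-ITD, 1.55 and 1.37 in the double mutant, 0.222 and 0.231 in WT and 1.27 and 1.30 in Npm1c. Podxl, a sialomucin related to Cd34, rose further with Flt3-ITD, from 0.541 and 0.999 to 23.4 and 22.9, against 0.408 and 0.406 in WT and 2.41 and 1.22 in Npm1c. The 12 genes lower on both steps (3.41% of those of the double mutant step and 35.3% of those of the Npm1c step, where 3.73% of all tested genes were 2-fold lower on the double mutant step) were Aldh3b2, Cd248, Dntt, Ephx2, Fahd1, Hist1h4m, Jchain, Myl9, Phyhip, Thbs1, Trem3 and Tubb1. Another 7 genes at least 2-fold higher and 10 at least 2-fold lower with Npm1c on WT changed by 2-fold in the opposite direction on Flt3-ITD.

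The HoxA genes differed in the sign of their interaction. For Hoxa10 and Hoxa9 the rise was smaller with Flt3-ITD than without, with interactions of -0.38 (adjusted p = 0.0294) and -0.46 (adjusted p = 0.0142). For Hoxa5, Hoxa6 and Hoxa7 it was larger, with interactions of 0.73, 0.59 and 0.73 (adjusted p = 0.0263, 0.0191 and 0.00388). These are small beside the interaction of H2-Eb1, 9.77 (adjusted p = 2.31e-07), or of Prss34, -5.06 (adjusted p = 4.46e-05).

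Some groups had more rises on one step and more falls on the other. Of the 38 nucleolar and MYC target genes 18 rose and 3 fell with Npm1c on WT (median log2 change 0.22), where 18.6% of all tested genes rose and 20.3% fell, and the interaction was negative for 32 and positive for 1. Myc was at 7.41 and 6.96 in Flt3-ITD, at 4.32 and 4.31 in the double mutant, and at 5.66 and 5.76 in WT against 9.19 and 8.41 with Npm1c, an interaction of -1.25 (adjusted p = 1.15e-05). Xpo1 was at 16.4 and 15.8 in WT and 23.2 and 24.5 in Npm1c, an interaction of -1.07 (adjusted p = 4.96e-05), and Dpy30 at 25.8 and 25.9 and at 36.5 and 35.5, an interaction of -1.28 (adjusted p = 3.45e-06). Npm1 itself rose on the WT step by 0.26 (adjusted p = 0.0158) and had an interaction of -1.06 (adjusted p = 3.21e-05).

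Of 43 DNA replication genes 23 fell without Flt3-ITD and 42 with it, and the interaction was negative for 33. Of the 30 actin genes 14 fell and 1 rose on the WT step, while 29 rose on the Flt3-ITD step. On the WT step 8 of 19 type 1 dendritic cell genes and 15 of 34 monocyte and macrophage genes fell and none rose, and of 20 dendritic cell activation genes 2 fell and 1 rose. These shares stand beside 20.3% of all tested genes lower and 18.6% higher on that step. Irf8 was at 10.9 and 11.1 in WT and 6.07 and 5.36 in Npm1c, and Ccr2 at 6.12 and 6.13 and at 3.04 and 2.70, with interactions of 3.53 and 3.16 (adjusted p = 9.27e-07 and 1.86e-07).

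**Figure D5:**
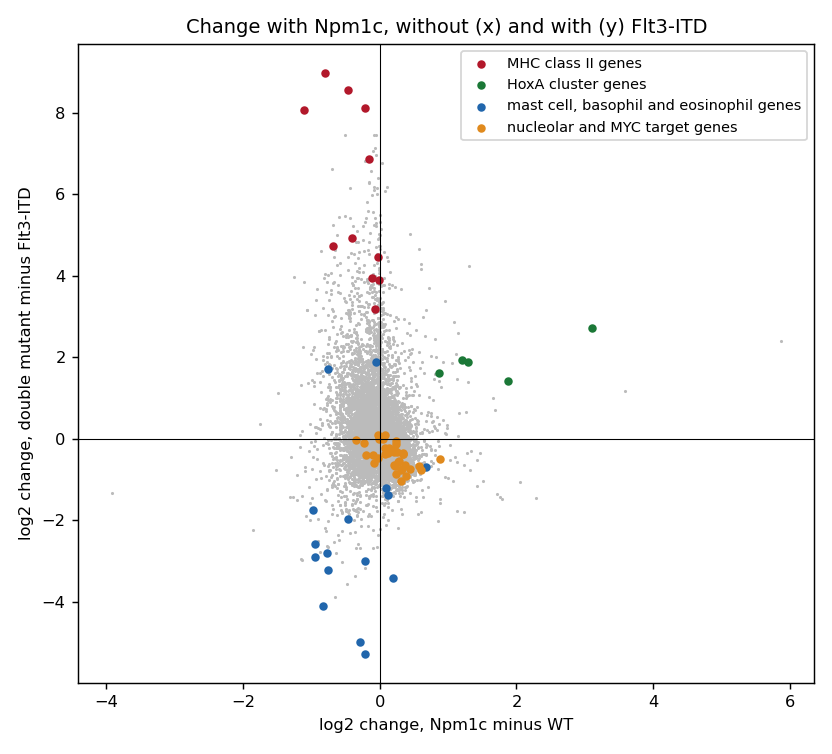
Log2 change of each of the 9428 genes with Npm1c on WT (x) against that on Flt3-ITD (y); each grey point is 1 gene and 4 gene lists are coloured. MHC class II genes lie near 0 or below on x and between 3 and 9 on y, the 5 tested HoxA genes are positive on both axes, and most nucleolar and MYC target genes are above 0 on x and below 0 on y.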

How the data were processed

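Libraries of lineage-negative bone marrow cells were prepared with rRNA depletion and a kit that keeps strand, per the labels' protocols. What the authors deposited is a file of RPKM for each library, with the same 16771 genes in all. STAR 2.4.0, HTSeq, DiffBind and mm10 are named, without roles, per the submitters' processing notes. The annotation, the use of strand in counting and the treatment of reads with several matches were not given in the sources used here, and overlapping genes and close copies may share reads. Reads outside the listed genes lower every deposited RPKM of a library. The gene lengths implied by the tables had a median of 1.54 times the union of exons in GENCODE M21 (16047 genes), so levels are compared between libraries and not between genes.

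Whole reads were recovered from the RPKM steps for 16655 of 16655 genes above 0 in at least 2 libraries (tolerance 0.02 reads), and the denominators quoted come from this. RPKM values were scaled by median-of-ratios factors over the 8 HSPC libraries and tested as log2(value + 0.5) with limma 3.58.1 (R 4.3.3), 1 mean per group, an empirical Bayes variance trend and Benjamini-Hochberg adjustment at 0.05 over all 9428 genes. With 2 libraries a group there were 4 residual degrees of freedom. Fold changes on this scale understate the change of low genes, and ratios of means are of scaled RPKM. Standard errors are those of the model, which takes 1 spread per gene for all 4 groups. The Flt3-ITD libraries differed more than those of the other groups, so standard errors and p-values can understate their spread.

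The members and gene lists were chosen with earlier results of these data known. Named genes are Npm1 and Flt3, the 20 largest rises and falls that passed the test with groups that did not overlap and at least 2 RPKM in the higher group, the list members with the smallest adjusted p or highest level, the 8 largest interactions in each direction and the cell type markers. In addition Spi1, Myb, and the genes listed as shared with the Npm1c step were named after their values were seen. Same-numbered libraries did not deviate together (correlations from -0.10 to 0.02), so the numbers were not used as pairs. Alternatives covered scaling, pseudocount, expression minimum, libraries fitted, replicate block, a Y-linked term, library weights, the variance trend and leaving out each replicate. Added after seeing the data were voom on the recovered reads, averaging the double mutant libraries, and the counts with a 2-fold change. The fits and the read recovery were tested on simulated data. Values were tabulated and drawn with Python 3.11.15, NumPy 2.4.6, pandas 2.3.3, SciPy 1.17.1 and matplotlib 3.10.9. Promoters were taken from a RefSeq table on GRCm38.p6, and gene positions from GENCODE M21 on GRCm38. A few genes of the lists are counted but not reported by name here.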

Additional observations from a re-analysis of the deposited data

Results flagged for a closer look

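The genes with the largest interaction terms were picked out because the change with Npm1c differed between the step on Flt3-ITD and the step on WT by the test of that difference (limma, adjusted p under 0.05). Upward, the differences in log2 change were 9.77 for H2-Eb1, 9.17 for Cd74, 9.03 for H2-Aa, 8.33 for H2-Ab1, 7.96 for Naaa, 7.53 for Plbd1, 7.31 for Ckb and 7.21 for Xcr1. Each of these genes was low in all 6 libraries other than the double mutant, and the conventional dendritic marker sums moved with them. Xcr1 is itself part of those sums.

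Downward, the differences were -5.06 for Prss34, -4.70 for Mcpt8, -3.60 for Cpa3, -3.28 for Prg2 and -3.23 for Mpo, genes that were high in WT, Npm1c and Flt3-ITD alike. For Ngp (-3.74), Chil3 (-3.28) and S100a8 (-3.19) the 2 Npm1c libraries lay far apart. Chil3, a secreted chitinase-like protein, was at 4.55 and 15.2 in Npm1c, 2.20 and 1.94 in WT, 12.0 and 11.9 in Flt3-ITD and 4.31 and 3.62 in the double mutant. Npm1c replicate 2, the higher one, also held Y-linked transcripts (13.2 scaled RPKM in sum). The part of that library in these 3 differences was not tested beyond leaving it out.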

How the results depend on the processing

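The 6 counts kept within 1.5 times of their reported values under every alternative that was run, except the genes at least 2-fold lower in the double mutant, 352 as reported, which were 571 on the deposited scale, 602 with quantile normalization and 535 with voom on the recovered reads. Leaving out 1 replicate gave 3291 to 3760 genes higher, 3216 to 3890 lower, 1317 to 1496 higher and 332 to 399 lower by at least 2-fold, and 3232 to 3744 positive and 2980 to 3674 negative interactions. A fit with the replicate number as a block gave 3612 genes higher and 3729 lower, 3471 positive and 3391 negative interactions. The replicate numbers did not pair the libraries. Of 182 tested values of single genes, 8 changed call or direction under at least 1 alternative. These values were the log2 changes of named genes on the Flt3-ITD step and the interactions of the genes flagged above. Other interactions, such as those of the HoxA genes, and changes of single genes on the WT step were not checked in this way. Csf1r (log2 -0.06) reversed to 0.052 with a Y-linked term, and leaving out 1 replicate gave it -0.29 to 0.17, and only the calls of Alas2, Cfl1, Chil3, Ly6c2, Ngp, Pf4 and S100a8 changed besides. Apart from the late neutrophil list, the calls on mitochondrial transcripts were the least stable, with 5 falls of 13 as reported and 1 without double mutant replicate 1. With 2 libraries per group the spread is estimated from few values, and no value here separates the Npm1c allele from Mx1-Cre.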
